A study of Mus musculus with 9 samples.

Results

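The genes described here are the nuclear-encoded subunits of mitochondrial complexes II, III, IV and V, together with cytochrome c. They were chosen as 25 genes listed by name plus every protein-coding gene whose symbol begins with Atp5, with pseudogenes left out. The rule found 43 of the 54532 gene identifiers in the count table: 4 of complex II, 9 of complex III, 1 of cytochrome c, 11 of complex IV and 18 of complex V. A filter on low counts was passed by 42 of the 43. The remaining identifier is a second one named Atp5o (ENSMUSG00000116933), whose exons all lie on exons of the main Atp5o gene (ENSMUSG00000022956) and of Donson, and which held 0 counts in the 9 libraries. In 30-day sample 1, the library with the smallest total after scaling, a count of 0 allows up to 0.213 CPM (counts scaled to a common library size). The 0 of this identifier sets no such limit, because reads on exons shared with other genes may not have been assigned to it. A pair of proteins bound to complex V fell outside the rule because their symbols in the annotation are Usmg5 and Atpif1.

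Bulk RNA sequencing was done on the submandibular gland, a major salivary gland, of WT (wild-type) mice given 10 Gy of radiation. There were 3 libraries at 30 days, 3 at 60 days and 3 at 90 days, each made from 4 sections of 50 µm. Every group was irradiated, non-irradiated glands were not analysed here, and time since irradiation and the age of the mice cannot be told apart. The labels number the samples but do not say that each came from a separate animal, so the p-values rest on the spread between these samples. In edgeR the spread used for a gene is drawn in part from all genes, so its SE can exceed the gene's own spread. In a bulk library, fewer cells of a type and less RNA per cell cannot be told apart.

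Complexes II, III and IV pass electrons from succinate and ubiquinol to oxygen, and III and IV pump protons across the inner mitochondrial membrane as they do so. Complex II is succinate dehydrogenase and also a step of the citric acid cycle, complex III is the cytochrome bc1 complex, cytochrome c is the soluble carrier from III to IV, and complex IV is cytochrome c oxidase. Complex V, the ATP synthase, lets the protons flow back and makes ATP. All of complex II and most subunits of III to V come from nuclear genes, while the catalytic core of IV, cytochrome b of III and a few membrane subunits of V come from mitochondrial DNA. Acinar cells spend ATP on secreting fluid and protein, and the striated duct cells of salivary glands are rich in mitochondria. The series' title names a link between calcium and ATP metabolism, on which these genes bear.

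The regulators known to act on many of these genes are NRF1 and the ETS-family factor GABP, so the starts of the member genes were searched for the core letters of their sites. RefSeq promoters (GRCm38.p6), each of 300 bases from 250 before to 50 after the start, were matched for 33 of the 42 member symbols. The NRF1 core GCATGCGC, read on both strands, was present in 8 of the 33 (24.2%), against 3.05% of 27025 genes with a promoter. It was found in Sdhb of complex II, Uqcrc1 and Uqcr11 of III, Cycs, Cox6a1 of IV, and Atp5g2, Atp5k and Atp5l of V. In Uqcrc1, Cox6a1, Atp5g2 and Atp5k the matches on both strands overlap to give GCGCATGCGC. The 8 stretches are shown because they are the members with this match, each 30 bases long in the direction of the gene and with the match in capitals.
Sdhb (chr4:140961206-140961235, plus strand): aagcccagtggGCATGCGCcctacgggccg
Uqcrc1 (chr9:108936668-108936697, plus strand): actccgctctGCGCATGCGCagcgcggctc
Uqcr11 (chr10:80406807-80406836, minus strand): atcgccttcacGCATGCGCtatacgtctgc
Cycs (chr6:50566611-50566640, minus strand): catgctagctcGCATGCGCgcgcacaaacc
Cox6a1 (chr5:115349101-115349130, minus strand): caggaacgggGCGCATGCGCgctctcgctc
Atp5g2 (chr15:102671070-102671099, minus strand): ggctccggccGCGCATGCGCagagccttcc
Atp5k (chr5:108434430-108434459, minus strand): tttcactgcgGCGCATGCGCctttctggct
Atp5l (chr9:44920963-44920992, minus strand): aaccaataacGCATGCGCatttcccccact

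The ETS core CCGGAAG, on both strands, was present in 12 of the 33 promoters (36.4%), against 9.93% of all genes with a promoter. The YY1 core AAGATGG was present in 4 (12.1%), against 7.28%. In 5 members (Sdhb, Uqcr11, Cox6a1, Atp5k and Atp5l) NRF1 and ETS cores lay in the same promoter without sharing bases. A match describes letters only and is not a bound site. For ETS, 1 member of each complex that has no NRF1 match is shown, with the ETS core or its reverse complement CTTCCGG in capitals.
Sdhd (chr9:50603878-50603907, minus strand): accgtctcctgcCTTCCGGttcacgcttca
Uqcrh (chr4:116075063-116075092, minus strand): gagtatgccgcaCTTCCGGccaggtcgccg
Cox6b1 (chr7:30626125-30626154, minus strand): ctcctctcgcagCTTCCGGccagtcggaat
Atp5e (chr2:174464186-174464215, minus strand): ctacggccacagCTTCCGGtagccgctcgg

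Library totals ran from 16541396 to 26065856 counts, and the members held between 79 counts (in a single library) and 18995 counts. The secretory gene Mucl2 took 31.4% to 42.8% of a library, and the 10 most abundant genes took 51.3% to 66.5%. Levels are therefore given as CPM after TMM scaling, which sets the middle of all genes level between libraries (factors 0.824 to 1.19). When libraries were scaled by their totals alone, the median of all genes moved by 0.05 on the log2 scale from 30 to 60 days, by 0.17 from 60 to 90 days and by 0.24 from 30 to 90 days. Directions at 90 days depend on this choice for most members, and the values with library totals alone are given with each complex.

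No subunit gene passed the test between any time points. At 60 against 30 days, 0 of the 42 members passed an adjusted p of 0.05 in edgeR's quasi-likelihood test, where 1.56% of the 15224 genes tested did. At 90 against 60 days, 0 of 42 passed, against 0.256% of all genes. For 90 against 30 days the count was again 0 of 42, against 3.57% of all genes. Setting 60 days against the mean of 30 and 90 days gave 0 of 42 and 0.256%, and testing for any difference among the 3 time points gave 0 of 42 and 3.29%. DESeq2 and limma-voom also called 0 members in each of these.

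Before adjustment, p was under 0.05 for 0 members at 60 against 30 days (12.4% of all genes), for Cyc1 and Atp5k at 90 against 60 days (10.8%) and for Sdhb at 90 against 30 days (16.8%). Atp5k was the single one at 60 days against the mean of the others (9.45%), and there was none for any difference (16.7%). The smallest adjusted p of a member in edgeR was 0.230 for Sdhb at 90 against 30 days. With DESeq2, 0 members had an unadjusted p under 0.05 at 60 against 30 days. At 90 against 60 days 6 had, and at 90 against 30 days 4, all lower. Its smallest adjusted p in these pairwise comparisons was 0.0632, at 90 against 30 days, for a gene of complex IV or V. With limma-voom these counts were 0, 3 and 2.

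The precision, with the TMM scaling taken as given, sets how large a change could have been missed. The intervals do not include the choice of scaling. With library totals alone the members' median at 90 against 30 days was 0.19, against -0.02 with TMM. All 42 of the 95% intervals lay within 1 on the log2 scale (a 2-fold change) in each of the 3 pairwise comparisons. Within 0.5 lay 36 intervals at 60 against 30 days, 37 at 90 against 60 days and 38 at 90 against 30 days. The widest reached 0.79 for Atp5k at 60 against 30 days, -0.91 for Atp5k at 90 against 60 days and 0.73 for Uqcr11 at 90 against 30 days. The plot of intervals by gene shows the same bounds for every member.

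**Figure D1:**
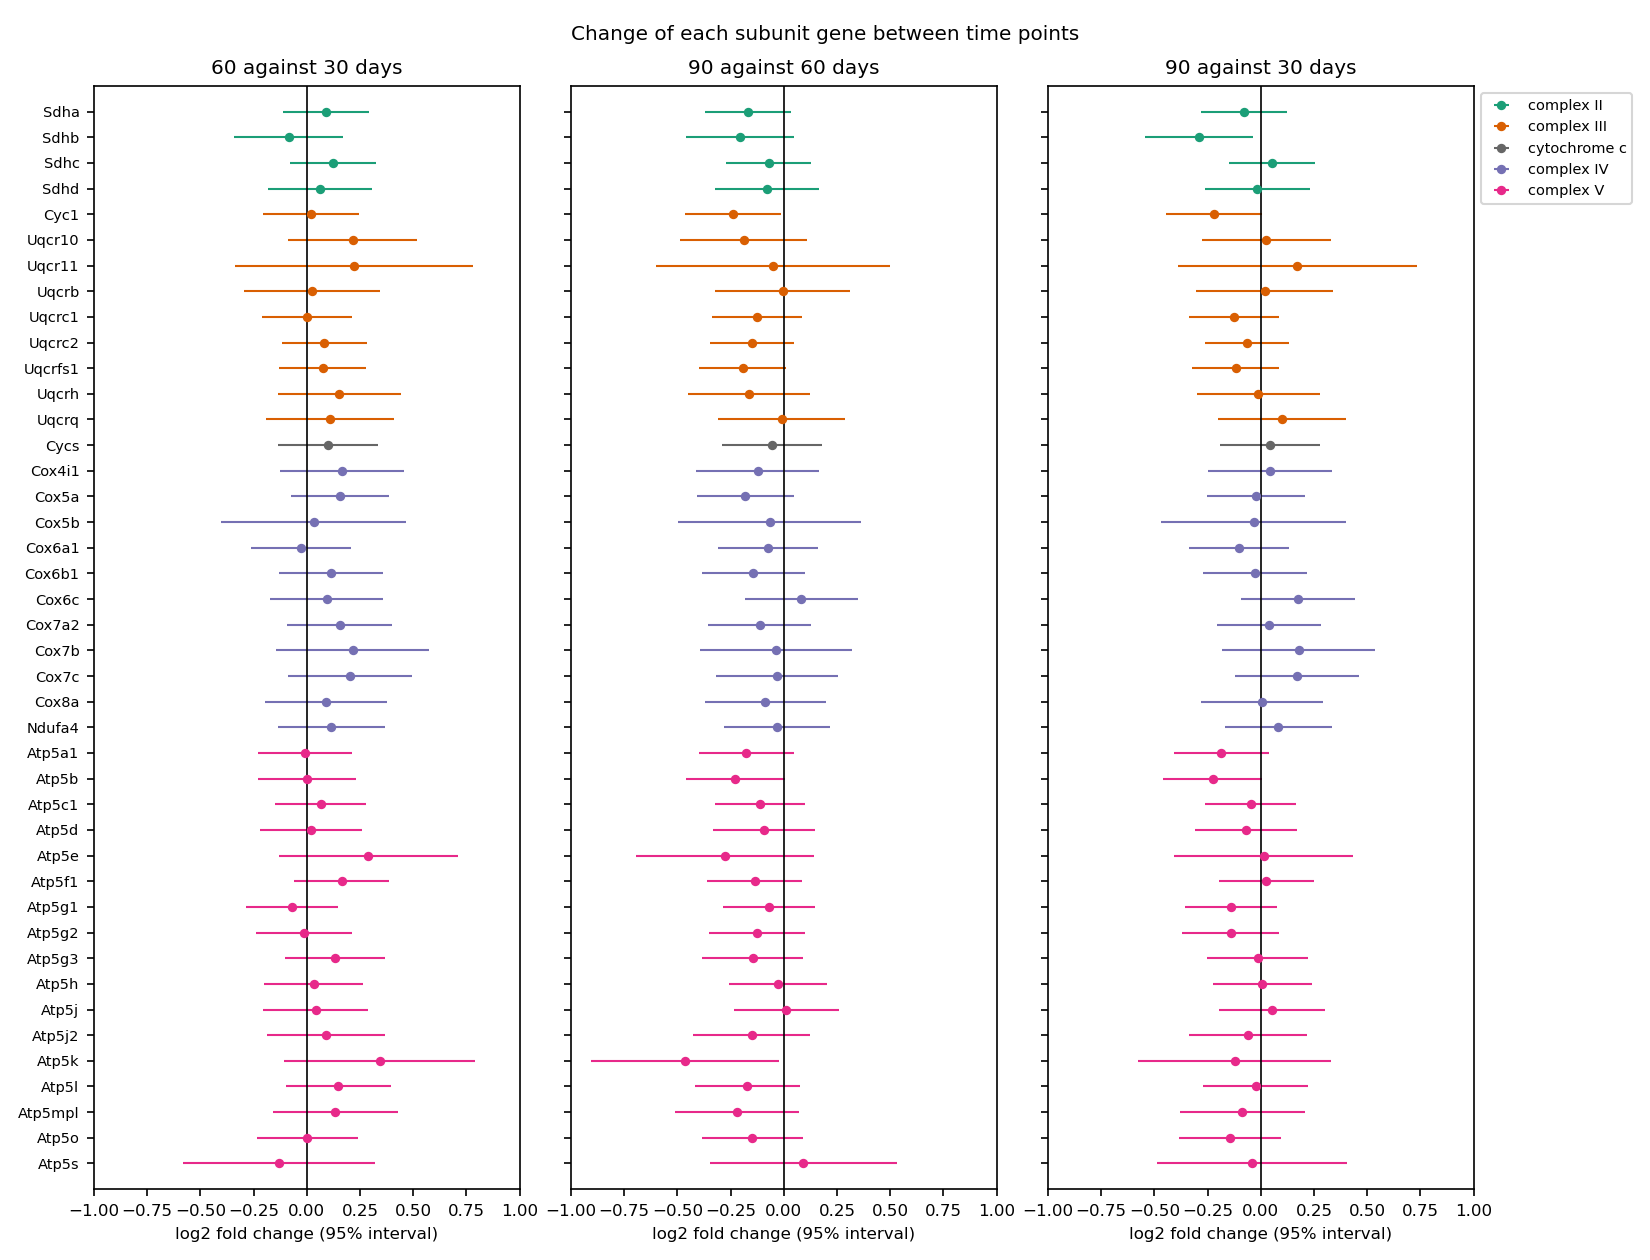
Estimated log2 fold change of each of the 42 subunit genes (points, coloured by complex) with its 95% interval (lines) in the 3 pairwise comparisons, from the fit of all 9 libraries. All intervals lie within 1 of 0 and nearly all cross it; at 90 against 30 days the interval of Sdhb runs from -0.55 to -0.04.

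The estimates leaned to one side in 2 of the comparisons. At 60 against 30 days 36 of the 42 members had an estimate above 0 (85.7%, against 49.6% of all genes), with a median of 0.09 against -0.00 for all genes. At 90 against 60 days 39 of 42 were below 0 (92.9%, against 49.9%), with a median of -0.13 against 0.00. Against the mean of the other time points, 41 of 42 were higher at 60 days (97.6%, against 51.3%), Atp5s being the exception. These comparisons share the 60-day libraries, and the lean was much smaller without 1 of them. Without 60-day sample 1 the median at 60 against 30 days was -0.03, with 18 members higher and 24 lower, and the median at 90 against 60 days was -0.01, also 18 and 24. From 30 to 90 days the members were split, 17 higher and 25 lower, with a median of -0.02 against 0.01 for all genes, of which 52.1% were higher and 47.9% lower.

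Scaling by library totals alone changed the direction of the later medians and left their place below all genes. The members' median was then 0.06 at 90 against 60 days (33 higher, 9 lower), with all genes at 0.17, and 0.19 at 90 against 30 days (40 higher, 2 lower), with all genes at 0.24. At 60 against 30 days it was 0.13 (39 higher, 3 lower), with all genes at 0.05. The members that stayed below 0 were Sdhb and Atp5b at 90 against 30 days, and Sdhb, Cyc1, Uqcrfs1, Cox5a, Atp5a1, Atp5b, Atp5e, Atp5k and Atp5mpl at 90 against 60 days. Relative to all genes the members' median was -0.13 at 90 against 60 days with TMM and -0.12 with totals alone.

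**Figure D2:**
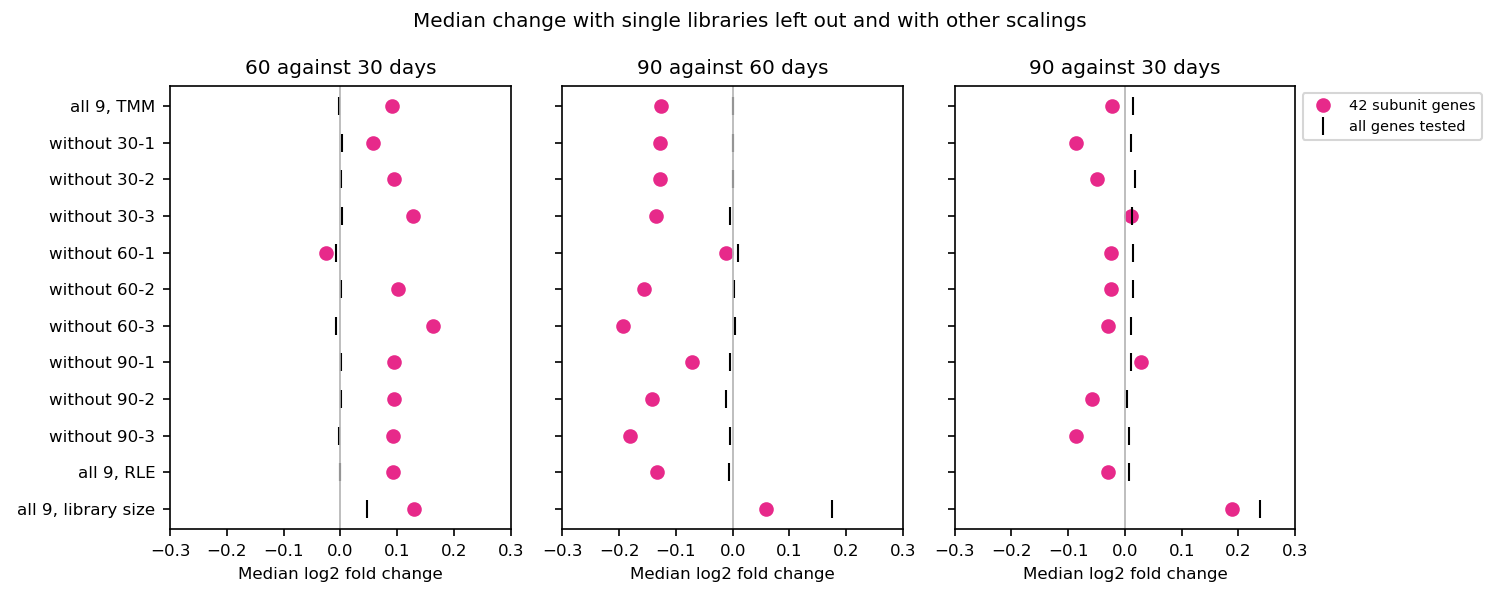
Median log2 fold change of the 42 subunit genes (filled circles) and of all genes tested (vertical bars) in the 3 comparisons, with all 9 libraries, with single libraries left out (day and sample number), and with RLE or library-size scaling. Leaving out 60-1 brings the first and second medians to -0.03 and -0.01; library-size scaling shifts members and all genes together.

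Library 60-1 (sample 1 at 60 days) stood out gene by gene. It held the highest value of the 9 libraries for 28 of the 42 members (66.7%), where it was highest for 14.5% of all genes. The 90-day sample 1 held the lowest value for 21 of the 42, where it was lowest for 6.85% of all genes, and the 30-day sample 1 was lowest for 9, where it was lowest for 18.2% of all genes. The median deviation of the members from their own means was 0.25 in 60-day sample 1, 0.02 in sample 2 and -0.09 in sample 3. At 90 days it was -0.17, -0.01 and 0.03, and at 30 days -0.05, -0.03 and 0.05. The 60-day sample 1 was also high for 80 ribosomal protein genes, a list added after these values were seen: their median deviation was 0.32 there, and 61 of them were highest in it. Their lowest median was in 60-day sample 3 (-0.26), not in 90-day sample 1 (-0.13). What sets this library apart was not tested.

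**Figure D3:**
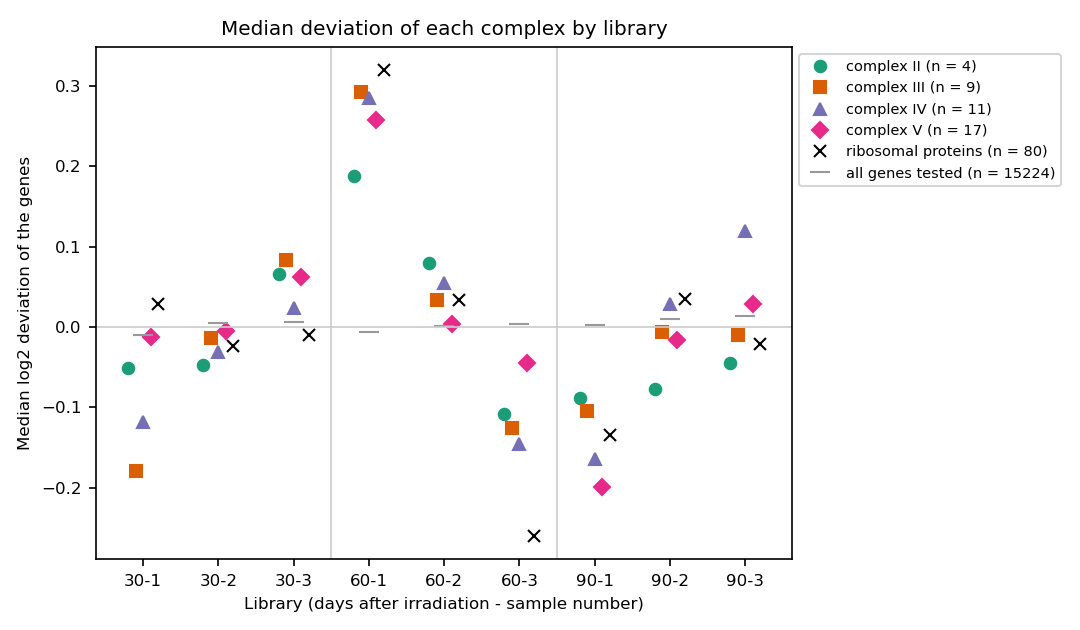
Median deviation of the genes of each complex from their mean over the 9 libraries (log2 of CPM plus 0.5), by library, with 80 ribosomal protein genes (crosses) and all 15224 genes (dashes). The 4 complexes and the ribosomal protein genes are all highest in library 60-1, and complexes IV and V are lowest in 90-1.

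The spread between libraries differed by day. The median coefficient of variation of the members was 6.07% at 30 days, 13.6% at 60 days and 7.97% at 90 days, against 13.8%, 14.8% and 12.2% over all genes. For 26 of the 42 members the spread was widest at 60 days. The medians of the members lay below those of all genes at each time. This spread also depends on level, and the members were not compared with genes of the same level. The heatmap shows each library.

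**Figure D4:**
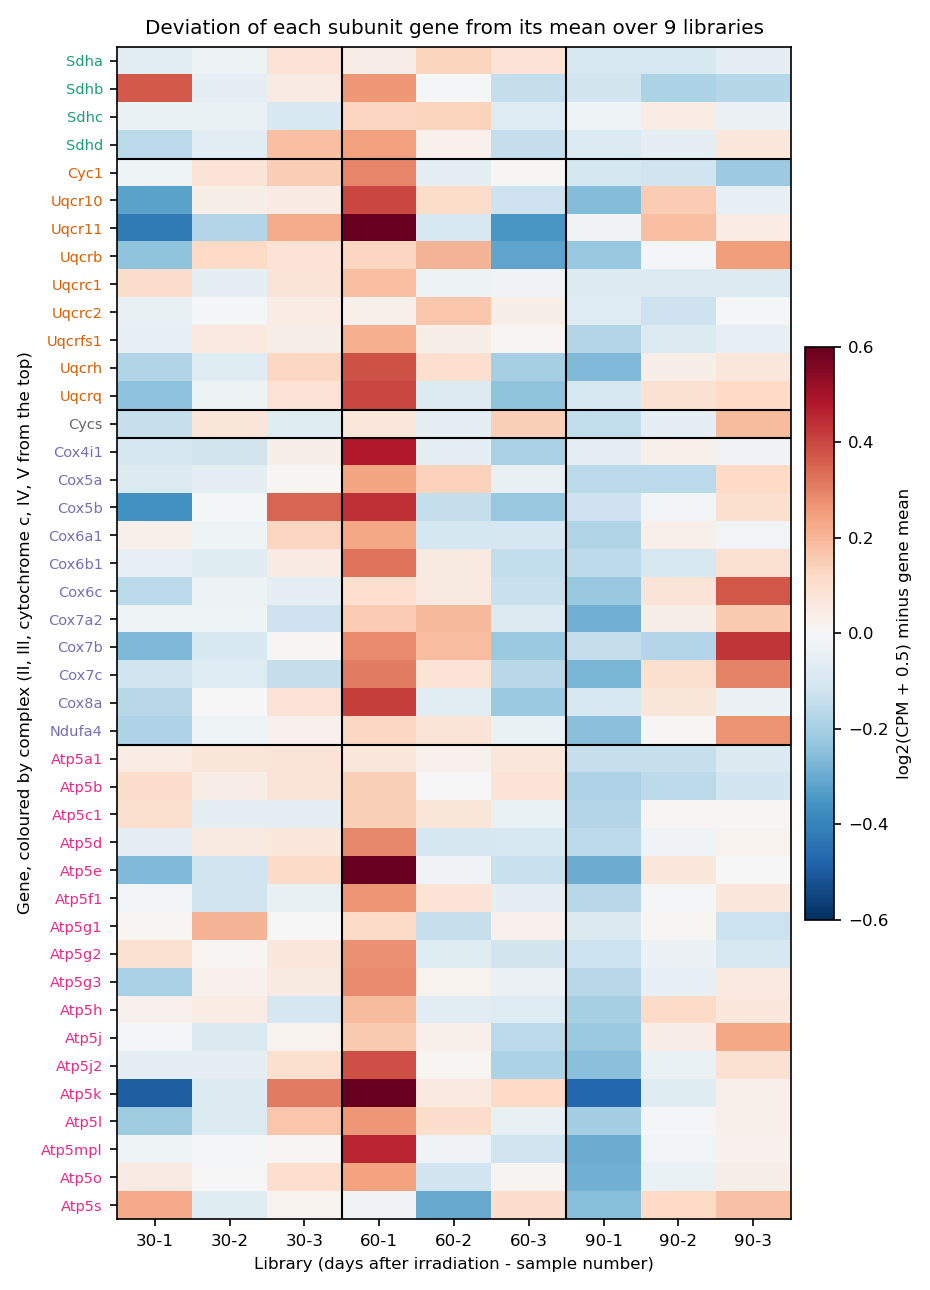
Deviation of each subunit gene (vertical axis, by complex) from its mean over the 9 libraries (horizontal axis, day and sample number), as log2 of CPM plus 0.5; red is higher and blue lower than the gene's mean. Column 60-1 is above the gene's mean for 41 of the 42 genes and column 90-1 below it for all 42, while Atp5a1 and Atp5b are blue in all 3 90-day columns.

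Of single genes whose libraries separated completely, 8 of the 42 (19.0%) were lower in all 90-day than in all 60-day libraries, against 7.64% of all genes, and none was higher (8.30%). These were Sdha, Cyc1, Uqcrc1, Uqcrc2, Uqcrfs1, Atp5a1, Atp5b and Atp5k. Between 30 and 90 days 7 were lower without overlap (16.7%, against 11.8%): Sdhb, Cyc1, Uqcrc1, Uqcrfs1, Atp5a1, Atp5b and Atp5g2. Sdhc was higher without overlap, against 11.4% of all genes. No member separated between 30 and 60 days (8.65% of all genes higher, 8.22% lower). With scaling by library totals no member was lower without overlap in any comparison, where 1.20% of all genes were at 90 against 60 days and 2.52% at 90 against 30 days. Under that scaling 3 members were higher without overlap at 60 against 30 days (Sdhc, Cox7a2 and Cox7c; 7.95% of all genes) and 3 at 90 against 30 days (Cox7b, Cox7c and Atp5f1; 22.5%). With RLE factors, another scaling to the middle of all genes, Sdhc no longer separated and Sdha was lower without overlap from 30 to 90 days.

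Complex II. None of the 4 genes of succinate dehydrogenase was called. Their median estimate was 0.08 at 60 against 30 days (3 of 4 above 0), -0.12 at 90 against 60 days (4 of 4 below 0) and -0.05 at 90 against 30 days (3 of 4 below 0). The 2 later medians turned with library totals alone to 0.05 and 0.17, each with 3 of 4 above 0 and Sdhb below. Without 60-day sample 1 the medians at 60 against 30 and 90 against 60 days were 0.02 and -0.06. Sdhb, the iron-sulfur subunit (ENSMUSG00000009863, chr4:140961203-140979193 in GRCm38), had 117, 87.1 and 94.0 CPM in the 3 libraries at 30 days, 109, 90.3 and 82.2 CPM at 60 days and 83.9, 79.5 and 80.5 CPM at 90 days. Its 3 values at 90 days lay close together and below all 30-day values, while the 30-day group was spread by the high value of sample 1. The change from 30 to 90 days was -0.29 ± 0.12 (log2, SE), with a 95% interval of -0.55 to -0.04, an unadjusted p of 0.0279 and an adjusted p of 0.230 in edgeR's quasi-likelihood test. It was the lowest estimate of any member between these days. With library totals alone the estimate of Sdhb was -0.05. Without 30-day sample 1 no complex II gene had an unadjusted p under 0.05 in edgeR, and the lowest complex II estimate was -0.16.

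Sdha, the flavoprotein that oxidises succinate (ENSMUSG00000021577, chr13:74322254-74350280), had 156, 160 and 173 CPM at 30 days, 168, 179 and 173 CPM at 60 days and 153, 152 and 157 CPM at 90 days. All 90-day values lay below all 60-day values, by -0.17 ± 0.10 (log2, SE; adjusted p = 0.560 in edgeR), and overlapped the 30-day values. That estimate was 0.01 with library totals alone. Sdhc and Sdhd are the membrane anchors that bind haem and ubiquinone. Sdhc ran from 71.9 to 74.8 CPM at 30 days, 72.8 to 84.3 CPM at 60 days and 74.8 to 79.3 CPM at 90 days, so that the separation of 90 from 30 days rested on values that nearly touch. Sdhd ran from 47.5 to 60.4, 48.2 to 63.2 and 50.2 to 55.7 CPM, with full overlap.

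Complex III. All 9 genes had an estimate above 0 at 60 against 30 days (median 0.08) and below 0 at 90 against 60 days (median -0.15), and none was called. From 30 to 90 days 4 were above 0 and 5 below, with a median of -0.01. Without 60-day sample 1 the 9 of 9 became 3 above and 6 below 0 in the first of these and 3 above and 6 below in the second. With library totals alone 7 of 9 were above 0 at 90 against 60 days (median 0.03) and 9 of 9 at 90 against 30 days (median 0.20). Cyc1, the cytochrome c1 that hands electrons to cytochrome c (ENSMUSG00000022551, chr15:76343523-76346260), had 105, 113 and 118 CPM at 30 days, 131, 102 and 107 CPM at 60 days and 99.1, 98.0 and 91.5 CPM at 90 days. Each 90-day value lay below each earlier one. The change was -0.24 ± 0.11 (log2, SE) from 60 to 90 days, with an unadjusted p of 0.0401 and an adjusted p of 0.446, and -0.22 ± 0.11 from 30 to 90 days, with an adjusted p of 0.318 (edgeR). With library totals alone these estimates were -0.06 and 0.00.

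Uqcrfs1, the Rieske iron-sulfur protein (ENSMUSG00000038462, chr13:30540308-30545362), had 92.4, 99.5 and 98.1 CPM at 30 days, 111, 97.9 and 96.4 CPM at 60 days and 84.7, 90.3 and 92.3 CPM at 90 days. The 90-day values were the lowest here too, and the highest of them differed from the lowest 30-day value by less than 1 CPM. The estimates were -0.19 ± 0.10 from 60 to 90 days (log2, SE; adjusted p = 0.496) and -0.12 ± 0.10 from 30 to 90 days (adjusted p = 0.610, edgeR), and with library totals alone -0.02 and 0.10. The core proteins, which form the matrix side of the complex, were not called either. Uqcrc1 had 164, 146 and 161 CPM, then 173, 149 and 150 CPM, then 144 CPM in each of the 3 90-day libraries. Uqcrc2, of whose exons 19.7% overlap a gene on the opposite strand, ran from 87.2 to 92.7, 92.0 to 101 and 82.5 to 89.4 CPM.

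Around this core sit 5 small subunits. Uqcrb, Uqcrh, Uqcrq, Uqcr10 and Uqcr11 are accessory proteins, and none of them separated between any time points. Uqcr11 was the most variable, with 23.1, 27.6 and 36.5 CPM at 30 days, 48.3, 29.2 and 24.4 CPM at 60 days and 30.7, 35.5 and 32.2 CPM at 90 days. Its 30-day and 60-day libraries spanned a wider range than its 90-day libraries, and the change from 30 to 90 days was 0.17 ± 0.25 (log2, SE). The estimates of the other four from 30 to 90 days were -0.01 for Uqcrh, 0.02 for Uqcrb, 0.03 for Uqcr10 and 0.10 for Uqcrq. Near-identical pseudogenes took counts equal to 6.37% of those of Uqcr11, so part of its reads may have been assigned elsewhere.

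Cytochrome c. Cycs (ENSMUSG00000063694, chr6:50562563-50566538) had 34.4, 39.9 and 36.1 CPM at 30 days, 39.8, 36.4 and 42.01 CPM at 60 days and 34.2, 36.4 and 43.4 CPM at 90 days. The groups overlapped throughout. Its estimates were 0.10 ± 0.11, -0.06 ± 0.11 and 0.04 ± 0.11 (log2, SE) in the 3 comparisons, with a smallest adjusted p of 0.783 in edgeR. Cyct, the testis form, held 0 counts in all libraries, which allows up to 0.213 CPM in 30-day sample 1, where the limit is highest.

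Complex IV. The 11 nuclear genes of cytochrome c oxidase had no call, and none separated between any time points with TMM scaling. The median estimate was 0.12 at 60 against 30 days (10 of 11 above 0), -0.07 at 90 against 60 days (10 of 11 below 0) and 0.04 at 90 against 30 days (7 of 11 above 0). Without 60-day sample 1 the median at 90 against 60 days was 0.06, with 7 of 11 above 0, and without 90-day sample 3 the median at 90 against 30 days was -0.06. With library totals alone 10 of 11 were above 0 at 90 against 60 days (median 0.11) and 11 of 11 at 90 against 30 days (median 0.26). The plot of single genes shows Cox4i1, which contacts the mitochondrially encoded core and is the form found in most tissues. It had 176, 175 and 193 CPM at 30 days, 263, 181 and 164 CPM at 60 days and 181, 192 and 186 CPM at 90 days. The 30-day and 90-day groups held nearly the same values, and the 60-day group held both the highest and the lowest library.

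Cox5a, a nuclear subunit on the matrix side (ENSMUSG00000000088, chr9:57521274-57532426), had 44.4, 45.4 and 47.5 CPM at 30 days, 55.6, 51.9 and 45.7 CPM at 60 days and 42.01, 42.1 and 51.3 CPM at 90 days. Its change was 0.16 ± 0.11 and then -0.18 ± 0.11 (log2, SE), with adjusted p of 0.609 and 0.580 in edgeR. Cox7c (ENSMUSG00000017778, chr13:86044816-86046904) had 58.6, 60.3 and 57.6 CPM, then 79.0, 67.4 and 56.7 CPM, then 52.5, 68.1 and 78.4 CPM. The tight 30-day values lay inside the range of both later groups, and the change from 30 to 90 days was 0.17 ± 0.14 (log2, SE; adjusted p = 0.597). Together these were the members of complex IV with the smallest p for any difference, and their adjusted p values for that test were 0.557 and 0.649.

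Of the other small subunits, Cox6a1 ran from 138 to 154, 131 to 165 and 124 to 143 CPM, and Cox8a from 98.3 to 117, 94.5 to 147 and 104 to 116 CPM. Cox6c, Cox7b and Ndufa4 had their highest value in 90-day sample 3, at 102, 80.6 and 95.5 CPM, and 67.4, 54.1 and 66.6 CPM in 90-day sample 1. Ndufa4 was first assigned to complex I and is now placed in complex IV. From 30 to 90 days the estimates of complex IV ran from -0.10 for Cox6a1 to 0.18 for Cox7b, with Cox5b (-0.03), Cox6b1 (-0.03) and Cox7a2 (0.04) between them. The isoforms of muscle, lung, testis and hypoxia were low or not detected. Of 9 listed, Cox6b2, Cox7a1, Cox8b and Ndufa4l2 could be tested and none was called. Cox6b2, the testis form, had 0.425, 0.476 and 0.651 CPM at 30 days, 1.12, 0.543 and 0.668 CPM at 60 days and 0.775, 1.17 and 1.10 CPM at 90 days. Its 90-day libraries lay above its 30-day libraries, as for 11.4% of all genes, on 6 to 34 counts a library. The estimate was 0.95 ± 0.49 (log2, SE), with an adjusted p of 0.340 in edgeR. Ndufa4l2, the hypoxia form, had 1.28, 1.49 and 2.72 CPM, then 1.99, 2.04 and 1.502 CPM, then 1.18, 1.34 and 1.255 CPM. It was lower at 90 than at 60 days in every library, as for 7.64% of all genes, and overlapped its 30-day values. The estimate from 60 to 90 days was -0.55 ± 0.35 (log2, SE), with an adjusted p of 0.605 in edgeR. Cox7a1, the heart and muscle form, ran from 2.49 to 4.32 CPM, against 62.9 to 88.1 CPM for Cox7a2, and Cox4i2, Cox6a2, Cox7b2 and Cox8c did not pass the filter.

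Complex V. The 17 tested genes named Atp5 had no call. Their median was 0.04 at 60 against 30 days (13 of 17 above 0), -0.15 at 90 against 60 days (15 of 17 below 0) and -0.06 at 90 against 30 days (13 of 17 below 0). With library totals alone 12 of 17 were above 0 at 90 against 60 days (median 0.03) and 16 of 17 at 90 against 30 days (median 0.15). Without 60-day sample 1 the first 2 medians were -0.04 and -0.02, and without 90-day sample 1 the last was 0.02, with 11 of 17 above 0. The catalytic head F1 was led by Atp5b, the beta subunit that carries the catalytic sites (ENSMUSG00000025393, chr10:128083273-128090391). It had 783, 749 and 769 CPM at 30 days, 803, 729 and 769 CPM at 60 days and 640, 653 and 672 CPM at 90 days. The 30-day and 60-day libraries could not be told apart, and every 90-day library lay below them. The estimates were 0.00 ± 0.11, -0.23 ± 0.11 and -0.23 ± 0.11 (log2, SE), with adjusted p of 0.999, 0.474 and 0.311 in edgeR's quasi-likelihood test.

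Atp5a1, the alpha subunit of the same ring (ENSMUSG00000025428, chr18:77773729-77782869), had 586, 598 and 599 CPM at 30 days, 596, 579 and 596 CPM at 60 days and 517, 517 and 535 CPM at 90 days. It followed Atp5b with even less spread, and again all 90-day values were the lowest. The change from 30 to 90 days was -0.19 ± 0.11 (log2, SE), with a 95% interval of -0.41 to 0.04 and an adjusted p of 0.403 (edgeR). That SE draws on the spread of other genes too. Within the 30-, 60- and 90-day groups the coefficient of variation of Atp5a1 was 1.20%, 1.64% and 2.05%. In 60-day sample 1, where most members were highest, Atp5a1 was not the highest, and Atp5b was at 803 CPM, against at most 783 CPM elsewhere. In each library there were 0.743 to 0.808 counts of Atp5a1 per count of Atp5b, a ratio that scaling does not touch, with means of 0.776, 0.771 and 0.798 at 30, 60 and 90 days. With scaling by library totals neither gene separated at 90 days, and the estimates from 30 to 90 days were -0.00 for Atp5b and 0.04 for Atp5a1. Acinar markers, given below, were lower at 90 days as well, and their part in the level of Atp5a1 and Atp5b was not tested.

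The stalk genes of F1 overlapped between all time points. Atp5c1, the gamma subunit that turns inside the head, ran from 129 to 144, 131 to 149 and 119 to 135 CPM. Atp5d, the delta subunit, ran from 140 to 153, 136 to 178 and 131 to 148 CPM. Atp5e, the epsilon subunit, had 55.2, 61.0 and 72.0 CPM at 30 days, 104, 65.4 and 60.5 CPM at 60 days and 54.01, 69.6 and 66.6 CPM at 90 days. Its 60-day mean was set by sample 1, and the other libraries overlapped. From 30 to 90 days the estimates were -0.05, -0.07 and 0.01.

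**Figure D5:**
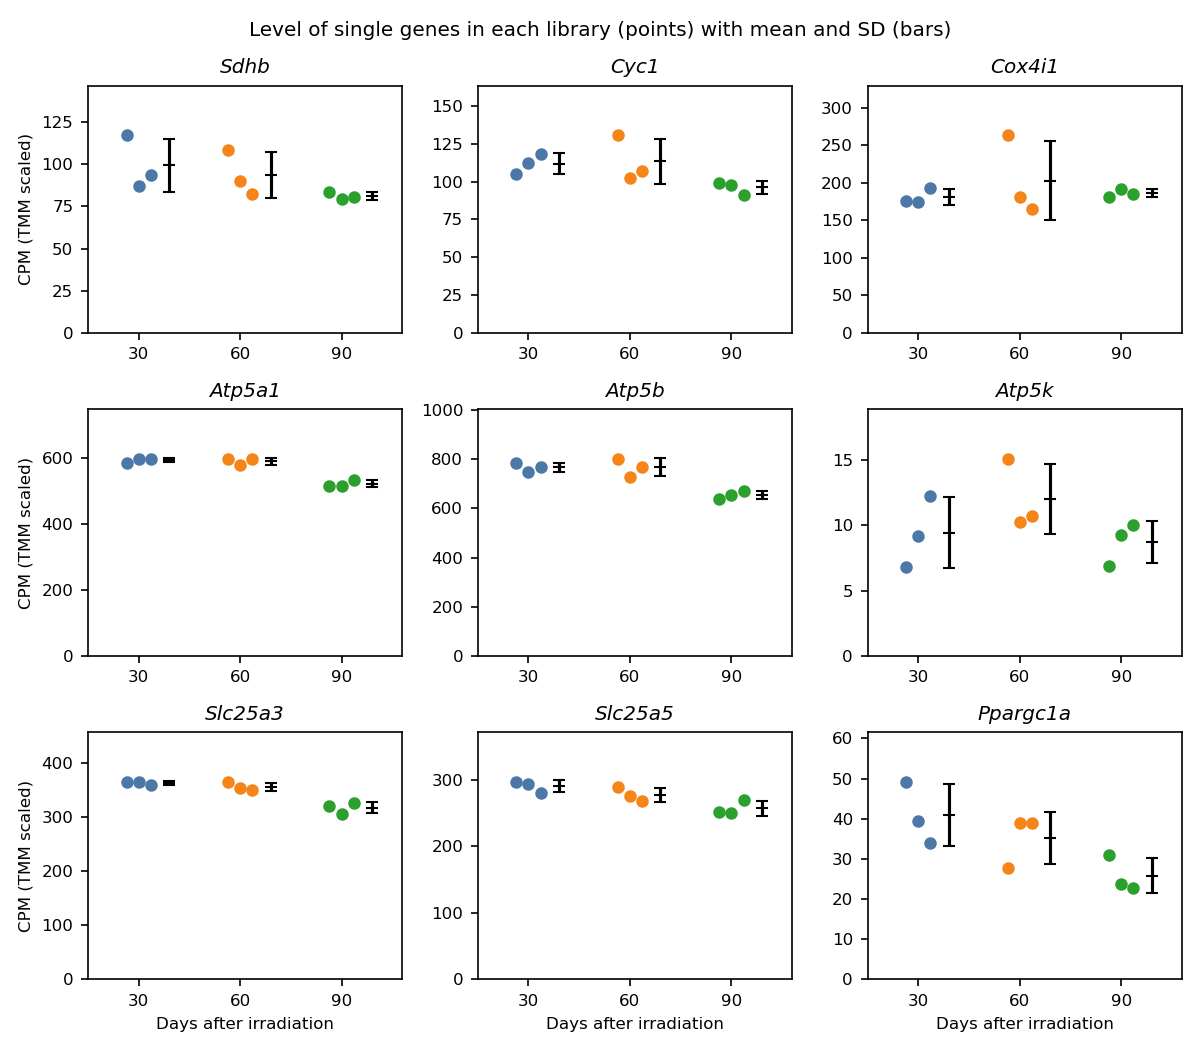
CPM after TMM scaling of 9 genes in each library (points) by days after irradiation, with mean and SD (bars, n = 3). The 90-day points of Cyc1, Atp5a1 and Atp5b lie below all earlier points, Cox4i1 and Atp5k have a single high library at 60 days, and Slc25a3, Slc25a5 and Ppargc1a are shown for the carriers and the regulator described in the text.

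The membrane ring of subunit c, through which the protons pass, is made from 3 genes that encode the same mature protein. Atp5g3 gave 50.2% ± 2.34 (SD, n = 3) of their counts at 30 days, 53.2% ± 1.11 at 60 days and 52.4% ± 2.24 at 90 days. Atp5g1 gave 26.1% ± 1.67, 24.1% ± 1.75 and 25.0% ± 1.54, and Atp5g2 gave 23.7% ± 1.87, 22.6% ± 0.887 and 22.6% ± 0.699. The shares of all 3 genes overlapped between the time points. These are shares of counts, not per length, and pseudogenes nearly identical to Atp5g1 took counts equal to 29.4% of its own. Atp5g2 ran from 58.0 to 61.3 CPM at 30 days, 53.3 to 69.8 CPM at 60 days and 52.7 to 56.2 CPM at 90 days. Its 90-day libraries lay below its 30-day libraries, with an estimate of -0.14 ± 0.11 (log2, SE) and an adjusted p of 0.566 in edgeR. That estimate was 0.09 with library totals alone.

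The peripheral stalk holds the head still. Its genes Atp5f1, Atp5h, Atp5j and Atp5o had estimates of 0.03, 0.01, 0.05 and -0.15 from 30 to 90 days. Atp5j ran from 86.2 to 93.2, 82.0 to 102 and 78.4 to 108 CPM, so the spread widened while the mean stayed near 90.1, 92.7 and 93.5 CPM. For Atp5o, exons amounting to 35.6% of its length overlap genes on the opposite strand, and 12.3% overlap the second Atp5o identifier on the same strand. For Atp5h pseudogene counts came to 13.9% of its own. The values of Atp5o and Atp5h are uncertain by the reads gained or lost there.

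Among the small membrane subunits Atp5k, subunit e (ENSMUSG00000050856, chr5:108433244-108434448), had the largest estimates of all members in both comparisons with 60 days. It had 6.80, 9.21 and 12.3 CPM at 30 days, 15.1, 10.2 and 10.7 CPM at 60 days and 6.91, 9.28 and 9.99 CPM at 90 days. All 60-day values lay above all 90-day values, and the 30-day values overlapped both. The estimates were 0.34 ± 0.21 at 60 against 30 days and -0.47 ± 0.21 at 90 against 60 days (log2, SE), with adjusted p of 0.558 and 0.446 in edgeR. At 60 days against the mean of the others it was 0.40 ± 0.18, with an unadjusted p of 0.0379 and an adjusted p of 0.492. Atp5j2 (subunit f), Atp5l (subunit g) and Atp5mpl had estimates of -0.06, -0.02 and -0.09 from 30 to 90 days, and pseudogenes of Atp5l took counts equal to 24.6% of its own. Atp5s, named Dmac2l in RefSeq and not a core subunit, ran from 3.93 to 5.88 CPM and had the lowest level of the members.

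Levels per length can be compared between genes. Per kilobase of merged exons, the mean over the 9 libraries was 201 CPM for Cox6a1, 182 for Atp5a1, 180 for Cox8a, 172 for Atp5b and 123 for Cox4i1. At the other end stood Atp5s with 2.45, Atp5l with 7.51, Cycs with 11.2 and Atp5g1 with 12.8 CPM per kilobase. These distances between subunits of 1 complex are far wider than the distances between time points of 1 gene. The order depended on the length used: per kilobase of the principal transcript, a length chosen after these values were seen, Atp5b led with 381 CPM, followed by Cox4i1 with 255, Cox6a1 with 247, Atp5a1 with 230 and Cox8a with 202 CPM, and Atp5s and Cycs stayed near the bottom with 3.37 and 12.2 CPM. Atp5l and Atp5g1 did not, at 89.0 and 106 CPM per kilobase.

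The direction of the members' summed counts depended on what they were set against. The 42 genes together held 0.424% ± 0.0565 (SD, n = 3) of all counts at 30 days, 0.455% ± 0.0460 at 60 days and 0.467% ± 0.0382 at 90 days. Without the 10 most abundant genes in the total, the shares were 1.13% ± 0.0551, 1.11% ± 0.0944 and 1.03% ± 0.0337. The means thus ran upward with time on the first scale and downward on the second. Complex V lay within 0.595% to 0.636% at 30 days and 0.525% to 0.552% at 90 days on the second scale, without overlap, and complex II within 0.0933% to 0.102% and 0.0870% to 0.0899%, also without overlap. On the second scale complex III (0.158% to 0.186% and 0.155% to 0.161%), complex IV (0.217% to 0.252% and 0.213% to 0.248%) and cytochrome c overlapped between these days. On the first scale complexes II and V overlapped too. Without Atp5a1 and Atp5b, complex V overlapped on the second scale as well, at 0.260% to 0.286% and 0.238% to 0.267%.

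A comparison of complexes within a library is free of scaling. The median deviation of complex IV minus that of complex V was -0.11, -0.03 and -0.04 (log2) in the 30-day libraries, 0.03, 0.05 and -0.10 at 60 days and 0.04, 0.05 and 0.09 at 90 days. Complex IV stood lower relative to complex V in all 30-day than in all 90-day libraries. For complexes III and V, II and V, and III and IV, the 30-day and 90-day values overlapped. This difference was picked from 4 such pairs after the values were seen and is given without a test. Within complex V, the other 15 genes minus Atp5a1 and Atp5b gave -0.09, -0.11 and -0.02 at 30 days and -0.05, 0.14 and 0.13 at 90 days, which overlap. The 21 members with shorter transcripts minus the 21 with longer ones gave -0.12 to -0.00 at 30 days and -0.08 to 0.09 at 90 days, which overlap as well.

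No assembly factor passed the test. Of those for complex II 4 of 4 could be tested, for complex III 6 of 6, for complex IV 24 of 26 and for complex V 5 of 5, and Sco2 and Pet117 held 0 counts. From 30 to 90 days the medians were 0.14 for complex II factors (3 of 4 above 0), 0.16 for complex III (5 of 6), 0.07 for complex IV (15 of 24) and 0.02 for complex V (4 of 5), against 0.01 for all genes. Sdhaf2, which helps to attach the flavin to Sdha, had 9.43, 11.6 and 10.5 CPM at 30 days, 13.0, 11.2 and 10.5 CPM at 60 days and 13.8, 13.4 and 12.1 CPM at 90 days. The 90-day libraries lay above the 30-day libraries, as for 11.4% of all genes. The estimate was 0.32 ± 0.15 (log2, SE), with an adjusted p of 0.276 in edgeR. Sdha overlapped between these days, at -0.08 with TMM and 0.14 with library totals alone, and Sdhb was lower, at -0.29 and -0.05. Sdhaf3 gave -0.08 ± 0.23. Uqcc2 and Uqcc3, which act in the assembly of cytochrome b into complex III, gave 0.25 ± 0.20 and 0.24 ± 0.21 from 30 to 90 days.

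For complex IV, Coa5 had 42.8, 48.7 and 44.6 CPM at 30 days, 51.2, 56.3 and 51.7 CPM at 60 days and 51.5, 50.7 and 50.8 CPM at 90 days. Both later groups lay above the 30-day group, as 60 days did for 8.65% of all genes and 90 days for 11.4%. The estimate at 60 days was 0.23 ± 0.10 (log2, SE), with an adjusted p of 0.338 in edgeR. Lrpprc, which stabilises mitochondrial mRNAs, gave -0.30 ± 0.13 from 30 to 90 days (adjusted p = 0.259). Atpaf1 and Atpaf2, the chaperones of the beta and alpha subunits of F1, gave 0.31 ± 0.22 and 0.18 ± 0.16. None of these passed.

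Carriers in the inner membrane supply complex V with phosphate and ADP. Slc25a3, the phosphate carrier, had 365, 366 and 360 CPM at 30 days, 365, 353 and 350 CPM at 60 days and 321, 306 and 326 CPM at 90 days. Slc25a5, an exchanger of ADP for ATP, had 297, 293 and 280 CPM, then 289, 275 and 268 CPM, then 252, 250 and 269 CPM. These were the carriers with the smallest p for any difference. The 90-day libraries lay below the 30-day libraries for both, as for 11.8% of all genes. Library totals alone put the median of all genes at 0.24 between these days, and the carriers' estimates with that scaling are not given here. The TMM estimates of Slc25a3 and Slc25a5 from 30 to 90 days were -0.19 ± 0.10 and -0.17 ± 0.10 (log2, SE), with adjusted p of 0.351 and 0.411 in edgeR. Slc25a4, the muscle and heart form, gave 0.07, and 0 of the 6 carriers and porins tested were called (median -0.05, with 2 of 6 above 0).

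Of 14 regulators of mitochondrial biogenesis, Ppargc1a passed in 1 pairwise comparison and the other 13 in none, with a median of -0.05 from 30 to 90 days (4 of 14 above 0). At 90 against 30 days 1.77% of all genes were called lower. It encodes PGC-1alpha, a coactivator that works with NRF1 and the ERR receptors on respiratory genes. Ppargc1a had 49.2, 39.5 and 33.9 CPM at 30 days, 27.7, 39.0 and 38.8 CPM at 60 days and 30.8, 23.8 and 22.7 CPM at 90 days. It fell by 0.66 ± 0.16 (log2, SE) from 30 to 90 days, with an adjusted p of 0.0373 in edgeR, and no overlap of the 2 groups. Over all genes 11.8% were lower without overlap between these days. The call is close to its threshold: the adjusted p was 0.00542 with DESeq2, 0.228 with scaling by library totals, and 0.0853 for any difference. It was also lost without 30-day sample 1 (0.174), 30-day sample 2 (0.0951), 60-day sample 2 (0.0514), 90-day sample 2 (0.169) or 90-day sample 3 (0.148). Library 60-1 held the lowest 60-day value of Ppargc1a, while sample 1 held the highest value at 30 days and at 90 days. A relation of these values to the members' levels was not tested. Nrf1 ran from 9.63 to 13.9 CPM and Gabpa from 22.8 to 25.6 CPM, and with Gabpb2 at -0.02 ± 0.11 from 30 to 90 days none of these was called.

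Members with an NRF1 core in their promoter had a median of -0.11 from 30 to 90 days and those without one -0.02, over 8 and 25 genes. At 60 against 30 days the medians were 0.05 and 0.09, and at 90 against 60 days -0.13 and -0.11. For the ETS core the medians from 30 to 90 days were -0.01 with it and -0.04 without it. These are descriptions of small groups of genes that share libraries.

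Partner subunits made from mitochondrial DNA are transcribed apart from the nuclear genes. Of the 6 for complexes III to V, 5 could be tested and 0 were called, with a median of -0.26 from 30 to 90 days (1 of 5 above 0). Cytochrome b, mt-Cytb, had 5164, 4786 and 3861 CPM at 30 days, 3198, 4220.4 and 3826 CPM at 60 days and 3896, 3607 and 3995 CPM at 90 days. In 60-day sample 1, where the nuclear genes were highest, mt-Cytb was lowest. The estimates from 30 to 90 days were -0.26 ± 0.16 for mt-Cytb (log2, SE; adjusted p = 0.429) and -0.35 ± 0.17 for mt-Co1, the catalytic subunit of complex IV (adjusted p = 0.319, edgeR). The median of the nuclear members minus that of these 5 genes was 0.50 in 60-day sample 1 and between -0.41 and 0.15 in the other 8 libraries.

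Markers of the gland's cell types differed over the same days. Of 7 acinar markers, 7 had a lower estimate at 90 than at 30 days and 4 were called lower (Aqp5, Ano1, Chrm3 and Lpo), against 1.77% of all genes. Their summed level was 13546 to 16428 CPM at 30 days, 14497 to 18892 CPM at 60 days and 8186 to 12027 CPM at 90 days. Of 7 granular duct markers, 6 were called higher at 60 days and 6 at 90 days against 30 days (1.14% and 1.81% of all genes), with sums of 20964 to 29006, 41443 to 50377 and 36334 to 49682 CPM. Scnn1b and Scnn1g, of 7 markers of other ducts and ionocytes, were called higher from 30 to 90 days, with sums of 261 to 312, 311 to 319 and 339 to 375 CPM. Acinar and duct markers of the labelled tissue were present at every time. The part of these shifts in the members' levels was not tested.

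Markers of muscle and fat, tissues that could adhere to the gland, were low. Of 10 skeletal muscle markers 2 passed the filter and Myh4 and Pvalb were at 0, with a summed level of 1.19 to 2.48, 1.88 to 2.76 and 1.36 to 2.12 CPM. Of 7 adipocyte markers 2 passed and Ucp1 was at 0, with sums of 8.29 to 10.3, 7.78 to 11.6 and 8.78 to 10.5 CPM. No marker of myoepithelial and basal cells (5 tested), of immune cells (6 of 7 tested) or of endothelial cells and fibroblasts (7 tested) was called in a pairwise comparison, while Cd3e of T cells passed for any difference. The sums of these 3 lists were 294 to 409, 438 to 465 and 403 to 564 CPM, then 147 to 244, 172 to 190 and 220 to 366 CPM, then 308 to 469, 295 to 398 and 365 to 431 CPM, at 30, 60 and 90 days.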

How the data were processed

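Bulk RNA sequencing of 9 libraries of submandibular gland in 3 groups of 3, grouped by the day in the sample titles, was analysed from the authors' deposited table of raw read counts per Ensembl gene. Per the submitters' processing notes, fastp, STAR and featureCounts were used with mm10, and their settings for strand and multiply mapped reads are not given in the sources used here. The table holds 3 more columns that match none of these samples, and they were left out. Symbols and positions came from GENCODE mouse release 21 (GRCm38).

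Genes were filtered with filterByExpr (minimum count 10), scaled with TMM and fitted over all 9 libraries with edgeR 4.0.16 (robust quasi-likelihood test, Benjamini-Hochberg adjustment over 15224 genes, threshold 0.05). The common biological coefficient of variation was 0.150. The fit was tested on simulated data. Intervals are 95% intervals from the same fit. Near-identical pseudogenes were found with blastn 2.17.0 (at least 95% identity over 100 bases). A floor of 3 counts corresponds to 0.101 to 0.213 CPM after scaling, and covers counting error only, as the reads carry no molecular identifiers.

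Members, lists and tests were chosen with earlier results of these data known. Described in full were members with an adjusted p under 0.05 and, in each complex and each pathway list, up to 2 genes with the smallest p for any difference. Others were named by their role. Alternatives were RLE factors, library totals alone, TMM on totals without the 10 most abundant genes, DESeq2 1.42.0, limma-voom 3.58.1, other low-count filters, the 6 samples of a comparison alone, each library left out, the sample number as a block and, added after seeing the data, another gene length. The main fit did not treat the sample numbers as pairs.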

Additional observations from a re-analysis of the deposited data

How the results depend on the processing

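The count of members called stayed at 0 in every comparison under each of the alternatives tried, including each library left out in turn (a fit of 6 samples alone exists for the pairwise comparisons). The members' median log2 fold change moved by more than the spread between libraries (SD 0.124) only with scaling by library totals alone, to 0.0586 at 90 against 60 days and 0.188 at 90 against 30 days, where the median of all genes moved to 0.17 and 0.24. Leaving out 1 library at a time gave medians from -0.03 to 0.16 at 60 against 30 days, from -0.19 to -0.01 at 90 against 60 days and from -0.09 to 0.03 at 90 against 30 days. The sign changed without 60-day sample 1 in the first of these, and without 30-day sample 3 (0.01) or 90-day sample 1 (0.03) in the last. The sample number is shared by the labels of the groups, which do not say what it means. Of 9 same-number correlations 1 was over 0.1 (0.19, sample 1 at 30 and 90 days), and 4 of 9 libraries matched their own number best. So few pairs cannot decide whether the number pairs the libraries. With the number as a replicate block, 0 members were called in every comparison, with medians of 0.09, -0.12 and -0.02, while calls over all genes went from 238 to 270, from 39 to 92 and from 544 to 717. Over all genes, DESeq2 called 369, 141 and 860, a fit with no low-count filter 459, 354 and 1045, and library totals alone 90 at 60 against 30 days; leaving out 1 library gave 73 to 244, 16 to 103 and 184 to 703. The level per kilobase moved by more than 1 SD between libraries for 38 of the 42 members when the principal transcript replaced merged exons. Depth limits Atp5s and Atp5k most, which had the lowest levels.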

Other observations

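Values are also given for both genes of complex V proteins whose symbols the rule does not take in. Usmg5, a small membrane subunit, had 43.4, 43.2 and 43.1 CPM at 30 days, 51.4, 44.6 and 40.2 CPM at 60 days and 36.4, 44.6 and 54.01 CPM at 90 days. Its 30-day libraries were nearly identical and lay within the range of both later groups. Atpif1, the inhibitor that stops the ATP synthase from running backwards, had 12.5, 12.5 and 14.7 CPM, then 18.3, 17.5 and 12.5 CPM, then 11.2, 17.5 and 19.1 CPM. Neither gene was called, and Atpif1 gave 0.28 ± 0.19 (log2, SE) at 60 against 30 days, with an adjusted p of 0.596 in edgeR's quasi-likelihood test.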
